A study of Homo sapiens with 6 samples.

Results

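Complex I (NADH:ubiquinone oxidoreductase) is the entry point of the mitochondrial respiratory chain: it passes electrons from NADH to ubiquinone and pumps protons across the inner membrane. Its subunits come from both genomes. The hydrophobic core of the membrane arm is encoded by the MT-ND genes of mitochondrial DNA, whereas the NADH-oxidising and quinone-reducing core of the matrix arm, and a shell of supernumerary subunits, are encoded in the nucleus, and assembly factors join the parts without staying in the enzyme. RNA of these genes was examined in cells of MDA-MB-231, an established line from a human breast tumour without hormone receptors.

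Members were the rows whose symbol named a nuclear subunit (NDUFA, NDUFB, NDUFC, NDUFS or NDUFV followed by a number, or NDUFAB1), an assembly factor (NDUFAF followed by a number) or a mitochondrial subunit gene (MT-ND). The names found 53 of 27451 gene rows: 39 rows of 38 nuclear subunits, 7 assembly factors and 7 mitochondrial genes. Symbol NDUFA7 had 2 rows. NDUFA4, although named as a complex I subunit, is now assigned to complex IV, and the assembly factor NDUFAF8 stands in the table under its older symbol C17orf89, outside the name rule.

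The 3 control libraries came from cells given the vehicle DMSO, and the 3 treated libraries from cells given 2 µM of H182 for 2 h. H182 belongs, by the title of the series, to a group of azetidine compounds that inhibit the transcription factor STAT3. A single cell line, dose and time were studied, and nothing in the labels tells whether replicates were grown separately, so the p-values rest on a spread between libraries that could be technical. Values were TPM (length-corrected shares of a library's transcripts, scaled to a total of 1000000), so the sequencing depth was unknown and no counting interval could be given.

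Across the whole table, 10753 to 11306 rows were listed at 0 in a library, and libraries correlated across the tested genes at 0.9928 to 0.9942 within a group and 0.9787 to 0.9806 between groups. Of the markers of the line, VIM, CD44, AXL, CAV1 and FOSL1 were present, with VIM at 4026 ± 24.3 TPM in DMSO and 3585 ± 140 in H182, whereas SPARC was at 0.450 and 0.587. The 5 markers present were all called lower in TPM, as were 18.7% of all tested genes. The hormone receptor genes ESR1 and PGR and the epithelial cadherin CDH1 stayed below 1 TPM on average, whereas the other 3 genes of the same luminal list were present: ERBB2 at 27.5 TPM in DMSO and 26.3 in H182, EPCAM at 13.75 to 16.15 and 12.49 to 14.55, and GATA3 at 10.3 and 6.75 (fell by 0.54 on the log2 scale, limma adjusted p = 0.00470). Summed over each list, 4 blood cell markers reached at most 1.47 TPM and 3 endothelial markers 0.51 TPM in any library. The sum of 3 markers of muscle, a tissue rich in complex I, was 0.07 to 0.11 TPM in DMSO and 0.34 to 0.93 TPM in H182. The H182 sum was ACTC1 alone, which was higher in every H182 library (means of 0.0567 TPM in DMSO and 0.597 in H182). CKM was at 0 in H182, and MYH7 was at 0 in all 6 libraries.

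Treatment was followed by different changes in the nuclear and the mitochondrial members. Of the 7 MT-ND genes, 5 rose and none fell, led by MT-ND6 (1.35-fold) and MT-ND5 (1.31-fold). Of the 39 nuclear subunit rows none rose and 4 fell, and of the 7 assembly factors none rose and NDUFAF6 fell. These calls are adjusted p-values under 0.05 in limma on log2(TPM + 1), over all 12294 genes whose mean over the libraries reached 1 TPM, a filter that every member passed. Among all tested genes 24.0% were called, 5.30% higher and 18.7% lower. The nuclear count of falls therefore lay below the background share and the mitochondrial count of rises above it. In a bulk sample, fewer cells and less RNA per cell cannot be told apart, and a TPM is a share, so a rise of other transcripts lowers it.

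The median log2 change was 0.20 over the MT-ND genes, -0.05 over the nuclear subunits and 0.03 over the assembly factors, against -0.09 over all tested genes. With median-of-ratios scaling, which brought the median gene to 0.00, these medians became 0.30, 0.05 and 0.13. Calls then were 6 higher and none lower for MT-ND, none higher and 1 lower for the nuclear subunits, and none higher and 1 lower for the assembly factors, where 7.88% of all genes were called higher and 6.78% lower. With quantile normalization the calls were 3 higher for MT-ND, 1 lower for the nuclear subunits and 1 lower for the assembly factors, against a background of 6.78% higher and 10.3% lower. The direction of the nuclear median thus depended on the scaling, and that of the mitochondrial median did not change among these scalings.

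**Figure D1:**
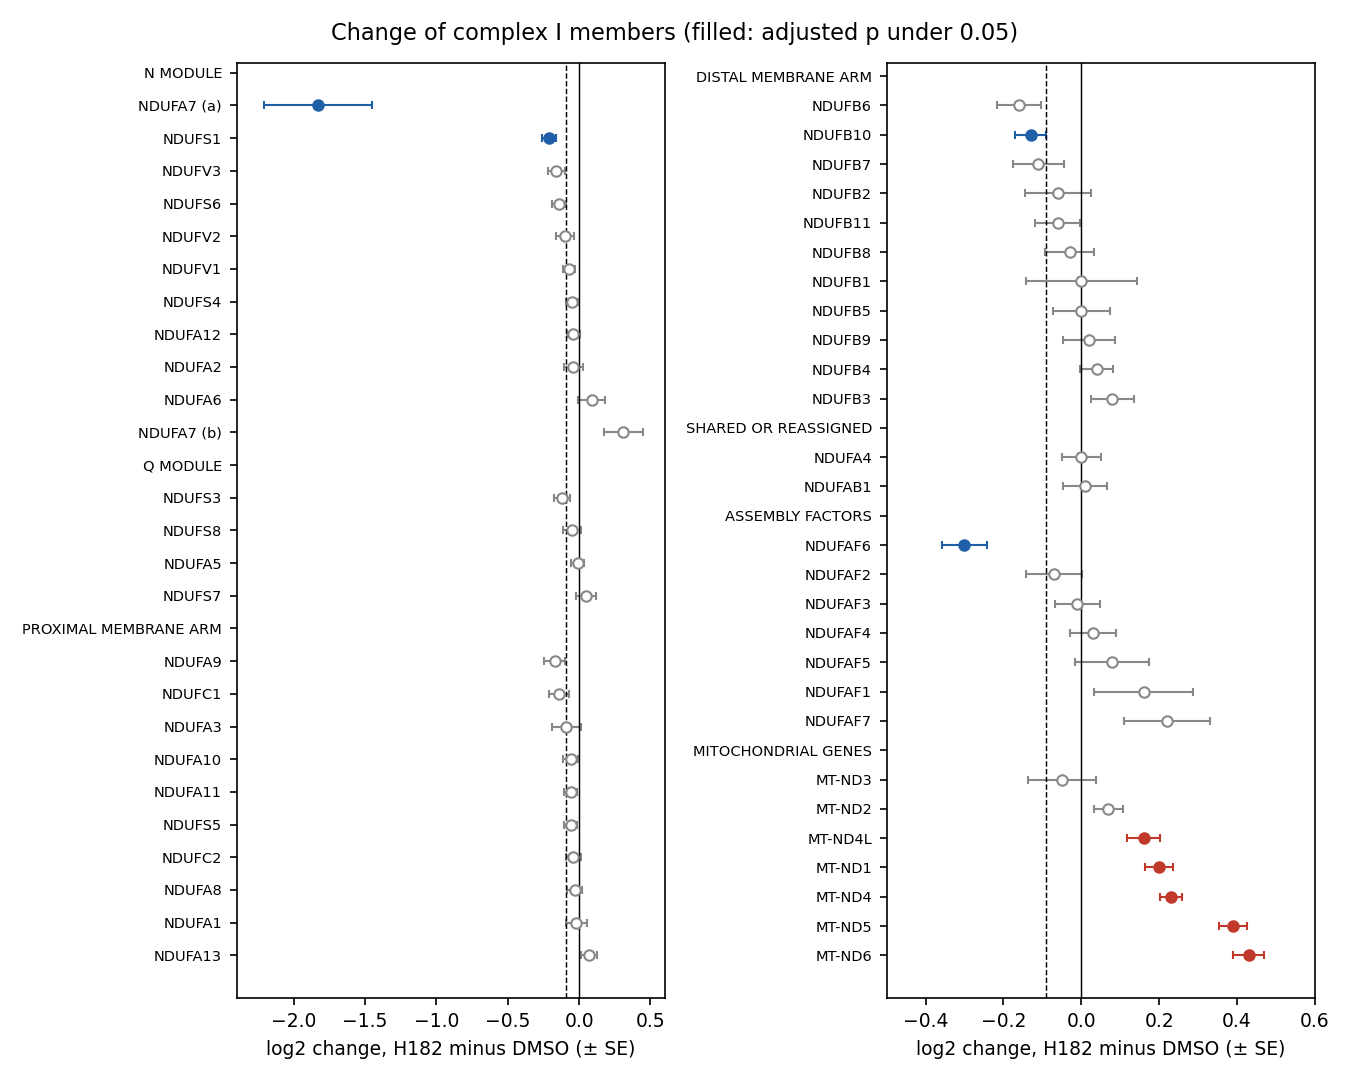
Log2 change (H182 minus DMSO, log2(TPM + 1) scale, bars SE, n = 3 libraries per group) of 52 member rows, grouped by position in the complex or by class; the left and right panels have different horizontal scales. Filled points passed an adjusted p of 0.05 (red higher, blue lower), the dashed line is the median of all tested genes at -0.09, and NDUFA7 (a) and (b) are the rows ENSG00000167774 and ENSG00000267855. Of the nuclear subunit rows, 27 sit to the right of the dashed line and 9 to the right of 0, while 6 of 7 mitochondrial genes sit to the right of both and 5 are filled.

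Mitochondrial genes were the most abundant members per unit length. Their 7 rows summed to 17026, 16333 and 16398 TPM in the DMSO libraries and to 18909, 18287 and 18461 TPM in the H182 libraries. All H182 sums lay above all DMSO sums, and the ratio of the means was 1.12. The 39 nuclear rows summed to 5442, 5178 and 5334 TPM in DMSO and to 5407, 5101 and 4894 TPM in H182, and the 7 assembly factors to 380, 385 and 382 TPM and to 393, 363 and 361 TPM. In both classes the groups overlapped, with ratios of 0.965 and 0.975. The summed MT-ND level stood at 3.07 to 3.15 times the nuclear sum in DMSO and at 3.50 to 3.77 times in H182. These sums are descriptions without a test.

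**Figure D2:**
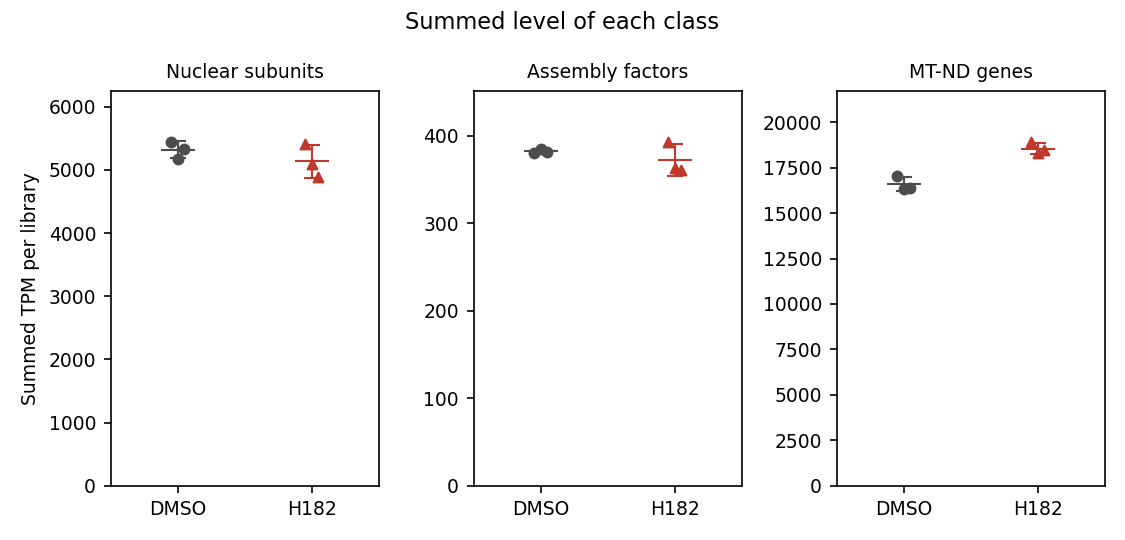
Summed TPM per library (points; horizontal dash and bar, mean ± SD, n = 3) of the 39 nuclear subunit rows, the 7 assembly factors and the 7 MT-ND genes; each panel has its own axis from 0. The groups separate in the MT-ND panel alone, at 16333 to 17026 TPM in DMSO and 18287 to 18909 TPM in H182.

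The mitochondrial genes lie on a compact chromosome (chromosome M, GRCh38) and are transcribed as long precursors of each strand that are then cut apart. Their borders are shown because they bear on how reads are divided between neighbours. MT-ND4L and MT-ND4 remain on 1 mRNA, and their reading frames share 7 bases, in capitals here, within chrM:10737-10789 (plus strand, from GENCODE 29 transcripts). MT-ND5 on the plus strand meets the 3′ end of MT-ND6 on the minus strand without a gap, and in chrM:14129-14168, written along the plus strand, the capitals mark the MT-ND6 side.
MT-ND4L to MT-ND4: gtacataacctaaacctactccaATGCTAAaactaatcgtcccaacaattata
MT-ND5 to MT-ND6: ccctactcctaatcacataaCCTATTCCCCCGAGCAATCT

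MT-ND6 (ENSG00000198695.2, 14149 to 14673, minus strand) encodes a membrane-arm subunit and is the single protein gene read from the light strand. Its RNA is known to lack the poly-A tail of the other mitochondrial mRNAs, and these libraries were poly-A selected. It was at 855, 837 and 861 TPM in the DMSO libraries and at 1209.9, 1095 and 1130.4 TPM in the H182 libraries. The groups were far apart, with a log2 change of 0.43 (limma adjusted p = 7.48e-05, SE 0.040). MT-ND5 (ENSG00000198786.2, 12337 to 14148, plus strand), a proton-pumping subunit at the tip of the membrane arm, was at 819.6, 782 and 798 TPM in DMSO and at 1045, 1009.9 and 1088 TPM in H182. It rose by 0.39 on the log2 scale (adjusted p = 8.25e-05, SE 0.037), again without overlap. The setting used for strand in the counting is not given in the sources used here. Opposite-strand reads anywhere in MT-ND5 or MT-ND6, and not only at this border, therefore cannot be told apart. Whether the MT-ND6 row rose independently of MT-ND5 was not tested. The MT-ND6 level was 1.04 to 1.08 times that of MT-ND5 in DMSO and 1.04 to 1.16 times in H182.

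MT-ND4 (ENSG00000198886.2, 10760 to 12137), another proton-pumping subunit, was at 3219.5, 3258 and 3216 TPM in DMSO and at 3784, 3755 and 3851 TPM in H182. It rose by 0.23 on the log2 scale (adjusted p = 3.70e-04, SE 0.028), a 1.17-fold ratio with tight replicates in both groups. MT-ND4L (ENSG00000212907.2, 10470 to 10766), which shares the mRNA of MT-ND4, was at 3341, 3384 and 3373 TPM in DMSO and at 3598, 3705 and 4027 TPM in H182. Its groups did not overlap either, with a log2 change of 0.16 (adjusted p = 0.0194, SE 0.042). That call was lost when any single DMSO library was left out (limma adjusted p = 0.0594, 0.0531 and 0.0547 without replicates 1, 2 and 3). With all 6 libraries, it was also lost with quantile normalization (log2 change 0.07, adjusted p = 0.271), and without the filter or the variance trend. The MT-ND4L level divided by that of MT-ND4 was 1.04, 1.04 and 1.05 in DMSO and 0.951, 0.987 and 1.05 in H182.

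MT-ND1 (ENSG00000198888.2, 3307 to 4262), the subunit at the junction of the arms next to the quinone site, was at 2498, 2441 and 2354 TPM in DMSO and at 2901, 2782 and 2694 TPM in H182. It rose by 0.20 on the log2 scale (adjusted p = 0.00468, SE 0.037), but did not pass with quantile normalization (0.08, adjusted p = 0.0830) or without a variance trend in the model (adjusted p = 0.0514).

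The remaining MT-ND genes did not pass. MT-ND2 (ENSG00000198763.3, 4470 to 5511), a proton-pumping subunit of the proximal arm, was at 3666, 3583 and 3465 TPM in DMSO and at 3911, 3701 and 3616 TPM in H182, with overlapping groups and a log2 change of 0.07 (adjusted p = 0.225, SE 0.038). It passed with median-of-ratios scaling (0.17, adjusted p = 0.0458), but lay at -0.05 under quantile normalization. MT-ND3 (ENSG00000198840.2, 10059 to 10404), a small subunit with a loop near the quinone site, was at 2627, 2047 and 2331 TPM in DMSO and at 2459.6, 2239 and 2054 TPM in H182. Its libraries were the most scattered of the class and intermixed, and its log2 change was -0.05 (adjusted p = 0.721, SE 0.088), or 0.05 with median-of-ratios scaling.

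**Figure D3:**
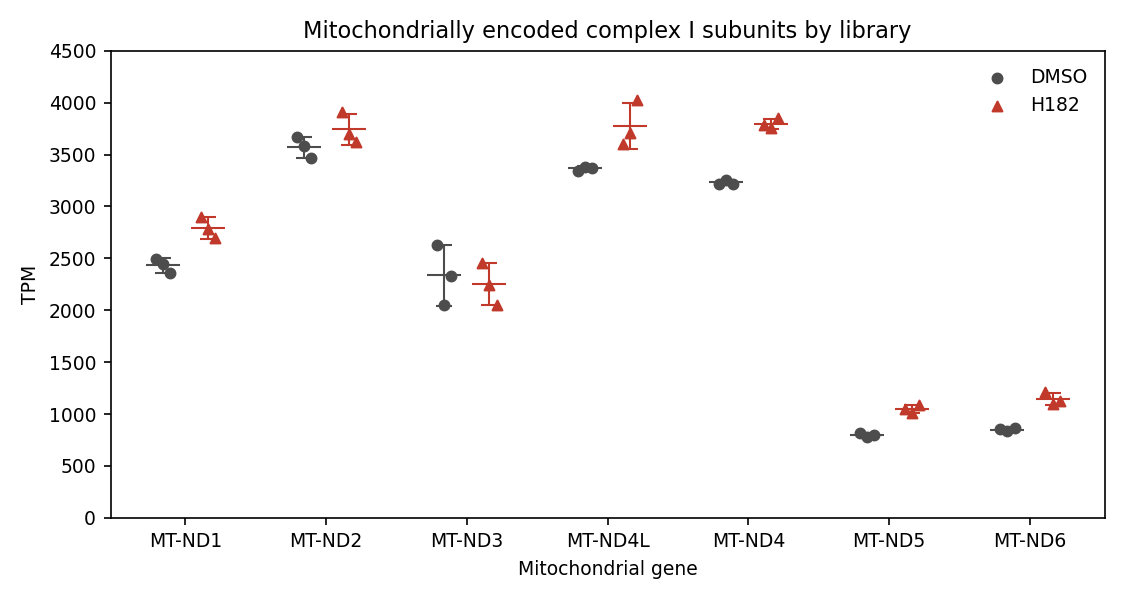
TPM of the 7 MT-ND genes in each library (points; horizontal dash and bar, mean ± SD, n = 3), grey circles DMSO and red triangles H182. The groups are apart for MT-ND1, MT-ND4L, MT-ND4, MT-ND5 and MT-ND6 and overlap for MT-ND2 and MT-ND3. Among all tested genes, 8.67% were apart with H182 higher and 32.7% with H182 lower.

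Because the 13 mitochondrial rows of the table share 2 precursor strands, the MT-ND genes were also set against the other 6. All 13 together held 4.19% to 4.35% of TPM in DMSO and 4.53% to 4.79% in H182. Within that total the share of MT-ND5 went from 1.88 ± 0.0225% to 2.27 ± 0.107% (SD, n = 3 each) and that of MT-ND6 from 2.00 ± 0.0457% to 2.47 ± 0.0538%, with no overlap between groups. The share of MT-ND2 was 8.41 ± 0.128% in DMSO and 8.09 ± 0.133% in H182, lower in every H182 library. The shares of MT-ND1 (5.72% to 6.03%) and MT-ND4 (7.61% to 8.21%) also rose without overlap, while those of MT-ND3 and MT-ND4L overlapped. All MT-ND genes together held 39.0% in DMSO and 40.1% in H182, higher in every H182 library. Relative to the mitochondrial total, therefore, MT-ND2 alone of the MT-ND genes fell without overlap. Shares of a fixed total cannot all rise, and in TPM the ratio of MT-ND2 was 1.05. Of the other 6 genes, 2 rose in TPM, where 5.30% of all tested genes did. Cytochrome b (MT-CYB) rose by 0.25 on the log2 scale (SE 0.035, from 1383 ± 31.3 to 1641 ± 51.5 TPM) and the oxidase subunit MT-CO2 by 0.19 (limma adjusted p = 0.0187). The median of the 6 was 0.07. With median-of-ratios scaling 5 of the 6 rose, whereas with quantile normalization MT-CYB rose and 3 fell (MT-CO1, MT-CO2 and MT-ATP8, by 0.21, 0.18 and 0.29). In order along the chromosome, the genes with the 3 highest changes were neighbours: MT-ND5, MT-ND6 and MT-CYB. These 3 also had the lowest levels of the 13, with DMSO means of 800, 851 and 1383 TPM, and their order by change held under each of the 3 scalings. Whether level had a part in the change was not tested.

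**Figure D4:**
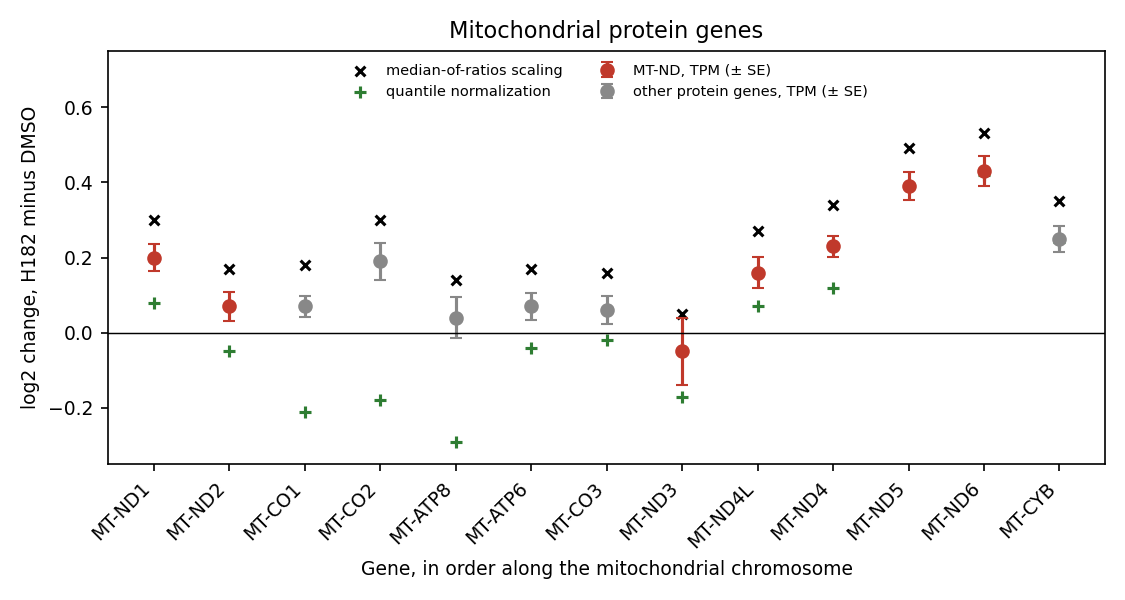
Log2 change (H182 minus DMSO) of the 13 mitochondrial protein genes in their order along the chromosome, MT-ND genes in red and the others in grey (TPM, bars SE, n = 3 per group), with median-of-ratios scaling (crosses) and quantile normalization (plus signs). MT-ND5 at 0.39 and MT-ND6 at 0.43 are highest in TPM and stay at 0.39 or above under the other scalings (the points hide their plus signs), while MT-ND3 is lowest in TPM at -0.05.

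The matrix arm begins with the N module, which holds the flavin and oxidises NADH. NDUFS1, its large iron-sulfur subunit (ENSG00000023228.13, chromosome 2, 206114817 to 206159603, minus strand), was at 79.2, 83.9 and 85.7 TPM in DMSO and at 71.6, 72.6 and 69.7 TPM in H182. Every H182 library lay below every DMSO library, and the log2 change was -0.21 (limma adjusted p = 0.0121, SE 0.049). That call did not hold with median-of-ratios scaling (-0.11, adjusted p = 0.167) or quantile normalization (-0.14, adjusted p = 0.0766). NDUFA12, the most abundant N module member, was at 257, 258 and 258 TPM in DMSO and at 268, 244 and 242 TPM in H182, with overlap and a change of -0.04.

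Other N module members did not pass. The flavin-binding subunit NDUFV1 changed by -0.07, its iron-sulfur partner NDUFV2 by -0.10 and the accessory NDUFV3 by -0.16. The accessory subunits NDUFS4 (-0.05), NDUFS6 (-0.14), NDUFA2 (-0.04) and NDUFA6 (0.09) were likewise not called. Of these, NDUFV3 and NDUFS6 were lower in every H182 library than in any DMSO library.

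The remaining N module symbol, NDUFA7, carried the largest change of any member, in a row that overlaps another. Row ENSG00000267855.5 (chromosome 19, 8308768 to 8321396, minus strand) is NDUFA7 in GENCODE 29. Row ENSG00000167774.2 (8308283 to 8321379, same strand) is listed there as AC010323.1 and is represented by a single transcript of 5 exons, classed as a target of nonsense-mediated decay. Of its 580 exon bases, 456 also belong to exons of the other row. An exon of 50 bases present whole in transcripts of both rows is shown as an example, at chr19:8320857-8320906 (minus strand, GENCODE 29 on GRCh38), and a read within it does not tell the rows apart.
NDUFA7 shared exon: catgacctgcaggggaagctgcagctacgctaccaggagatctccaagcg

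Row ENSG00000167774 was at 29.1, 45.4 and 20.6 TPM in DMSO and at 8.58, 13.7 and 3.76 TPM in H182, lower in every H182 library. It fell by 1.83 on the log2 scale (limma adjusted p = 0.00779, SE 0.378), and it passed with median-of-ratios scaling and without each library in turn. Row ENSG00000267855 was at 73.4, 49.3 and 74.0 TPM in DMSO and at 79.9, 75.2 and 85.8 TPM in H182, higher in every H182 library but not called (0.31, SE 0.136, adjusted p = 0.128).

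The DMSO library with the highest value in the ENSG00000167774 row had the lowest in the other. Summed, the rows came to 102, 94.6 and 94.6 TPM in DMSO and to 88.5, 88.8 and 89.6 TPM in H182. The sum was steadier between replicates than either row, and its change was -0.13 (adjusted p = 0.0820, SE 0.047), so it was not called. The ENSG00000167774 row held 21.8% to 47.9% of the sum in DMSO and 4.20% to 15.4% in H182. With the rows summed, 3 nuclear subunits fell in place of 4, and the estimated division of shared reads between the rows enters both single-row values.

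**Figure D5:**
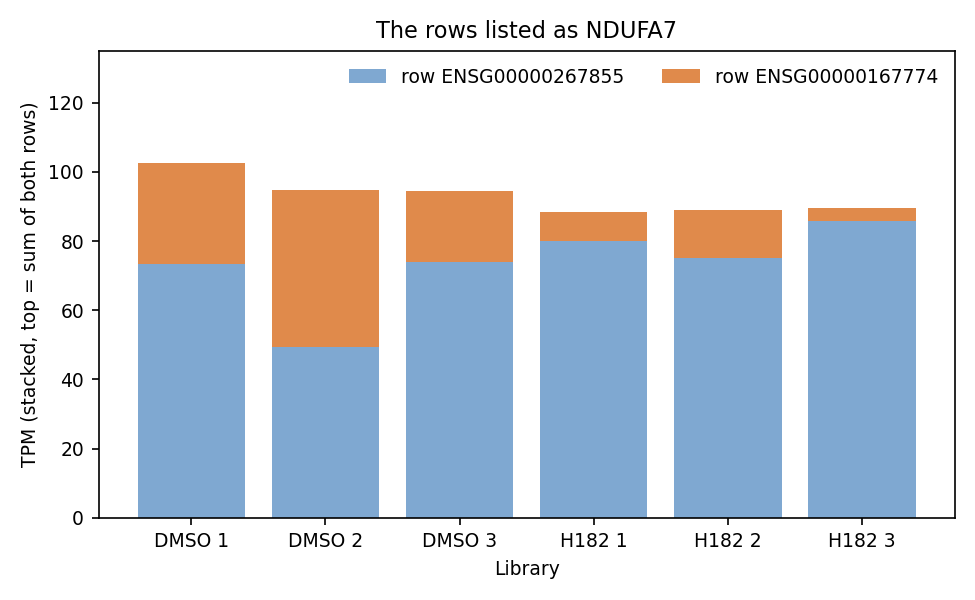
TPM of the 2 rows listed as NDUFA7 in each library, stacked so that the top of a bar is their sum (axis from 0). The ENSG00000167774 part (orange) shrinks from 20.6 to 45.4 TPM in DMSO to 3.76 to 13.7 TPM in H182, while the sums lie between 94.6 and 102 TPM and between 88.5 and 89.6 TPM.

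The Q module carries electrons to ubiquinone. NDUFS8, an iron-sulfur subunit and the most abundant of the module, was at 183, 160.3 and 170.1 TPM in DMSO and at 181, 157 and 159 TPM in H182, a change of -0.05. NDUFS3 (-0.12), NDUFS7 (0.05) and NDUFA5 (-0.01) did not pass, though NDUFS3 was lower in every H182 library.

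No member of the proximal membrane arm and its junction passed in limma (0 of 10, and 1 at an unadjusted p under 0.05). Of all 12294 tested genes, 24.0% were called and 4599 had an unadjusted p under 0.05. NDUFS5, an intermembrane-space subunit and the most abundant nuclear member, was at 403, 397 and 395 TPM in DMSO and at 409.8, 375 and 362 TPM in H182. Its H182 libraries ranged from above to below the DMSO group, and its change was -0.06 (adjusted p = 0.374, SE 0.047). The other 9 ranged from -0.17 for NDUFA9 to 0.07 for NDUFA13, which is also known as GRIM-19 and has been described as a partner of STAT3. NDUFA13 was at 256, 225 and 248 TPM in DMSO and at 269, 250.5 and 246 TPM in H182, with overlapping groups (adjusted p = 0.380, SE 0.056). NDUFC2 overlaps a readthrough locus, NDUFC2-KCTD14, which was at 13.9, 14.6 and 16.8 TPM in DMSO and at 6.91, 19.1 and 21.4 TPM in H182. NDUFC2 changed by -0.04 alone and by -0.03 with that locus added.

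In the distal membrane arm, 1 of 11 subunits was called, where 24.0% of all tested genes were. NDUFB10 (ENSG00000140990.14, chromosome 16, 1959508 to 1961975, plus strand), an accessory subunit on the intermembrane-space side, was at 245, 234 and 255 TPM in DMSO and at 224, 223 and 225 TPM in H182. The groups did not overlap, and it fell by 0.13 on the log2 scale (adjusted p = 0.0496, SE 0.040). It lost its call without DMSO replicates 1 or 3 or any H182 library, and with median-of-ratios scaling (-0.02) or quantile normalization (-0.06). The call was also lost with a pseudocount of 0.1 or 0.5, without the filter or the variance trend, and with the replicate block. Scaling over nuclear genes, or without HSPA1A, HSPA1B and DNAJB1 in the totals, removed it as well. Among the 10 others, changes ran from -0.16 for NDUFB6 to 0.08 for NDUFB3, and NDUFB6 was lower in every H182 library. NDUFB4 (0.04), NDUFB5 (0.00), NDUFB9 (0.02) and NDUFB1 (0.00) lay near 0, NDUFB1 with a wide spread from 85.2 to 128 TPM in H182.

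NDUFAB1, the mitochondrial acyl carrier protein, serves fatty acid synthesis as well as complex I. It was at 74.0, 70.2 and 72.0 TPM in DMSO and at 77.8, 68.8 and 71.8 TPM in H182, with a change of 0.01 (adjusted p = 0.896, SE 0.056). NDUFA4 was at 325, 313 and 309.7 TPM in DMSO and at 338, 310.3 and 297 TPM in H182, with a change of 0.00 (adjusted p = 0.955, SE 0.050). In both genes the H182 libraries spanned the whole DMSO range.

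Counted over all 39 nuclear rows, 8 had every H182 library below every DMSO library and 1 had them above, where 32.7% and 8.67% of all tested genes did so (41.4% in either direction). The change lay above the median of all genes in 27 rows and below it in 12. The 32 supernumerary rows had a median of -0.04 with 2 falls (NDUFB10 and the ENSG00000167774 row), where 18.7% of all tested genes fell. Without the NDUFA7 rows, changes of the other 37 rows ran from -0.21 to 0.09. Within the H182 group, replicate 1 was the highest library in 21 of 39 rows and replicate 3 the lowest in 29, and in DMSO replicate 1 was the highest in 23. Level differences between libraries of a group, with a median coefficient of variation of 4.96% in DMSO and 6.47% in H182, were thus of the size of most of the changes.

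Assembly factors were less abundant, at means over all libraries from 13.3 TPM (NDUFAF1) to 145 TPM (NDUFAF2). NDUFAF6, a phytoene-synthase-like factor needed to build the matrix arm (ENSG00000156170.12, chromosome 8, plus strand), was at 49.5, 50.1 and 52.6 TPM in DMSO and at 38.8, 40.9 and 43.1 TPM in H182. The groups did not overlap. NDUFAF6 fell by 0.30 on the log2 scale (limma adjusted p = 0.00560, SE 0.059), and it passed under quantile normalization (-0.22, adjusted p = 0.0178), under median-of-ratios scaling (-0.20, adjusted p = 0.0317) and without each library in turn. The other 6 overlapped between groups and were not called, whereas the groups did not overlap for 41.4% of all tested genes. NDUFAF7, a methyltransferase, changed by 0.22 (adjusted p = 0.181) and NDUFAF1, an intermediate assembly factor, by 0.16. NDUFAF5, a hydroxylase of NDUFS7, changed by 0.08, NDUFAF4 by 0.03, its partner NDUFAF3 by -0.01 and NDUFAF2, a relative of NDUFA12, by -0.07. C17orf89, the older symbol of NDUFAF8 and the partner of NDUFAF5, was at 113, 121 and 112 TPM in DMSO and at 114, 113 and 98.8 TPM in H182, a change of -0.08.

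Assembly factors of complex I with other names, 13 in all, had a median of -0.11, with none higher and 2 lower (5.30% and 18.7% of all tested genes). Those were OXA1L, the insertase that places mitochondrial proteins in the inner membrane, which fell by 0.26, and TMEM126B, which fell by 0.18. Neither passed with median-of-ratios scaling. With quantile normalization OXA1L passed (-0.17, limma adjusted p = 0.0387) and TMEM126B did not (-0.09, adjusted p = 0.186).

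Nuclear genes of the other respiratory chain complexes were counted the same way, where 18.7% of all tested genes were called lower and 5.30% higher. In limma none of 4 complex II genes was called, with SDHA at -0.11 and SDHC at -0.18. At an unadjusted p under 0.05 were 3 of them, and 4599 of all 12294 tested genes. In complex III, 1 of 9 fell (UQCRC1, by 0.21), and UQCRFS1 was at -0.14. In complex IV, 1 of 10 fell (COX5A, by 0.18), and COX7A2 was at 0.15. In the ATP synthase 4 of 15 fell, with the lowest p for ATP5A1 (fell by 0.26) and ATP5C1 (fell by 0.19). Medians were -0.12, -0.08, -0.01 and -0.08. No gene of these lists rose. With median-of-ratios scaling ATP5A1 remained called and the other 5 did not. With quantile normalization ATP5A1, ATP5C1 and ATP5F1, also of the ATP synthase, remained called and the others did not. Whether complex I differs from these complexes was not tested.

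Of 19 genes of mitochondrial transcription and of RNA processing, stability or decay, none rose and 5 fell, where 18.7% of all tested genes fell. Those 5 were ELAC2, FASTK, LRPPRC, MTPAP and PNPT1. The median of the 19 was -0.17, against -0.09 over all tested genes. ELAC2, the nuclease that trims mitochondrial tRNA ends, fell by 0.28 (adjusted p = 0.00338), and FASTK, which is needed for stable MT-ND6 RNA, fell by 0.25 (adjusted p = 0.00712), from 72.8, 74.9 and 77.1 TPM to 59.6, 64.3 and 64.3 TPM. Among the 5, ELAC2 alone passed with median-of-ratios scaling, and ELAC2 and FASTK alone with quantile normalization. Of 9 tested regulators of respiratory chain genes, PPRC1, a coactivator related to PGC-1alpha, fell by 0.41 (adjusted p = 0.000876) and none rose, while YY1 (-0.12) did not pass. TFAM, which packages and helps transcribe mitochondrial DNA, changed by -0.09 (adjusted p = 0.307).

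Promoters of nuclear members were searched for letters of factors known from respiratory chain genes, and for the heat shock element. RefSeq promoters (GRCh38.p14) matched 38 of 45 nuclear symbols, and the 250 bases before the start were read on both strands. The ETS or GABP letters CCGGAAG were in 6 of 38 (15.8%), against 8.82% of all promoters and 16.8% of those of other tested genes. For NRF1, a shorter and a longer form of the letters were searched. The shorter form, GCATGCGC, was in 4 (10.5%; 2.81% of all and 4.95% of tested genes): NDUFA6, NDUFB4, NDUFS6 and NDUFS7. The longer form was in 1, NDUFB4 (2.6%; 1.13% of all and 2.04% of tested genes). The YY1 letters ATGGCGGC were in NDUFA7 and NDUFS8 (5.3%; 1.34% and 1.96%). The heat shock element was in none (0.439% and 0.295%). A match is not a binding site. NDUFS1 was the single called member with ETS or GABP letters, and its 250 bases (chr2:206159445-206159694, minus strand) are shown with the match, which reads on the opposite strand, in capitals. They precede the RefSeq start, but GENCODE 29 places the upstream end of the gene at 206159603, so most of these bases, the match included, lie inside the gene as annotated there.
NDUFS1 promoter: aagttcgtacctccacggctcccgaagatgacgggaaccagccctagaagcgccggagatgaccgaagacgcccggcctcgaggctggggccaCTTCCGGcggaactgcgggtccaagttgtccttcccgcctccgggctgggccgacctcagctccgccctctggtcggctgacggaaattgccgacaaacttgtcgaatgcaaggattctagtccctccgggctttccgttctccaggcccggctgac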

How the data were processed

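Poly-A selected RNA libraries from 3 DMSO and 3 H182 samples were sequenced, made with a stranded kit per the labels' protocols. STAR 2.5.0, RSEM 1.2.25 and GRCh38 are named in the submitters' processing notes; for annotation and strand setting the sources used here give nothing. Deposited TPM values were scaled by the authors to 1000000 per library and have 2 decimals. Of 27567 rows, 92 spike-in rows and 24 second rows of genes on X and Y were left out. All 53 member rows matched GENCODE 29 by identifier.

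H182 was compared with DMSO by limma 3.58.1 in R 4.3.3 on log2(TPM + 1), two-sided, with a mean-variance trend, over 12294 genes whose mean reached 1 TPM, and Benjamini-Hochberg adjustment with a threshold of 0.05. The pseudocount of 1 understates changes of low genes. Values after ± are SDs over 3 libraries. On simulated data for this comparison and these 12294 genes the test called 18.8% of changes of 0.25, 59.8% of 0.5, 92.4% of 1 and 98% of 2 on the log2 scale. The simulation gave a change to a small part of the genes only, whereas 24.0% were called in the data. It also averaged over genes of all levels, so these shares do not give the recovery of the members. Alternatives covered pseudocount, filter, scaling, variance model, replicate block and left-out libraries; summing the NDUFA7 rows and adding C17orf89 were chosen after seeing the data. The members and lists were chosen with earlier results of these data known. Members with values in every library were the MT-ND genes, the called members, the most abundant of each module, NDUFA4 and NDUFAB1; 1 called nuclear subunit enters the counts and sums but is not reported here. NDUFA13, C17orf89 and the readthrough locus were added after their values were seen. Figures were drawn with matplotlib 3.10.9.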

Additional observations from a re-analysis of the deposited data

How the results depend on the processing

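The number of all genes called lower moved from 2304 to 833 with median-of-ratios scaling, 1261 with quantile normalization, 1498 without HSPA1A, HSPA1B and DNAJB1 in the totals, 998 at an adjusted p of 0.01, and to 1407 to 2205 with 1 library left out (1407 without DMSO replicate 2, 1486 without H182 replicate 2). Nuclear subunits called lower went from 4 to 2 without a filter, without a trend, scaled over nuclear genes or without those 3 genes, to 1 with median-of-ratios scaling or quantile normalization, and to 2 to 4 with 1 library left out (2 without DMSO replicates 1 or 3 or H182 replicates 2 or 3). Over all genes, falls numbered 1721 without a filter, 1672 without a trend and 2184 scaled over nuclear genes. MT-ND genes called higher went from 5 to 3 without a trend or with quantile normalization, and to 4 to 5 with 1 library left out. All genes called higher went from 651 to 617 without a trend, 833 with quantile normalization and 529 to 586 with 1 library left out. Median changes over all genes were -0.05 without a filter, 0.00 with median-of-ratios scaling, -0.03 with quantile normalization and -0.06 without the 3 genes. With median-of-ratios scaling and quantile normalization they were 0.05 and 0.02 for nuclear subunits, 0.13 and 0.11 for assembly factors, and 0.30 and 0.08 for MT-ND genes (0.24 without the 3 genes). Ratios of summed TPM with median-of-ratios scaling were 1.04, 1.05 and 1.20 for these classes. The cause was not tested.

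No pairing of the samples by replicate number is stated. Deviations of same-numbered libraries correlated across genes at -0.01302, 0.002453 and -0.03586, and those of unlike numbers at -0.01716 to 0.02807. Such values show no common pairing over genes but cannot tell how the samples were grown. With the replicate block 1 nuclear row was called higher, NDUFA7 row ENSG00000267855 (0.31, limma adjusted p = 0.0425). Among all tested genes, 625 were called higher with the block. In that fit NDUFA7 row ENSG00000167774 had an adjusted p of 3.89e-05, against 0.00779 without the block. Among the members given with values in every library, signs turned for these that did not pass: NDUFS8 (0.05 with median-of-ratios scaling, 0.03 with quantile normalization), NDUFS5 (0.04 with median-of-ratios scaling), NDUFA12 (0.07, 0.00 with quantile normalization and 0.00 without the 3 genes), NDUFA4 (0.10, 0.04, 0.00 scaled over nuclear genes and 0.03 without the 3 genes), MT-ND2 (-0.05 with quantile normalization), MT-ND3 (0.05 with median-of-ratios scaling) and NDUFA7 row ENSG00000267855 (-0.13 with both rows summed). Other members near 0, among them NDUFA2, NDUFS4, NDUFV1 and NDUFAF2, also turned from negative to positive with median-of-ratios scaling. With 1 library left out, NDUFAB1 ran from -0.04 to 0.05, NDUFA4 from -0.06 to 0.04 and MT-ND3 from -0.14 to 0.04. Depth is unknown, so no counting limit can be given. Of the planned addition of near-identical copies, the readthrough locus of NDUFC2 was run, and pseudogenes and nuclear copies of mitochondrial genes were not analysed here.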
